A study of Mus with 17 samples.

Results

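The comparison described here sets the abdominal aorta of mice given angiotensin II together with neferine against that of mice given saline, and it uses 11 of the 17 samples of the study. The samples were chosen by their titles alone. All mice were wild-type C57BL/6 animals, treated over 42 days. Control mice received saline and double distilled water (n = 5, replicates 1, 2, 4, 5 and 6). The neferine group received angiotensin II at 500 ng/kg/min and neferine at 1 mg/kg/day (n = 6, replicates 1 to 6). It differs from Control in both agents, so what the infusion does and what neferine does cannot be told apart in this comparison. A further group received the same infusion with double distilled water in place of neferine (AngII, n = 6). Its libraries entered the fit for the estimate of spread, and its values are given beside the others for many, not all, of the transcripts and loci described. The labels do not say how many animals made up a sample, and every p-value here rests on variation among the deposited samples, some of which may be technical.

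Angiotensin II is the effector peptide of the renin-angiotensin system. It acts on receptors of vascular smooth muscle, where it causes contraction, and prolonged infusion raises blood pressure and is known for growth and matrix remodelling of the vessel wall. Neferine is a bisbenzylisoquinoline alkaloid of the lotus seed embryo that is studied for vasorelaxant and other cardiovascular actions. The aorta itself holds a layered media of smooth muscle and elastic sheets, an inner endothelium and an outer adventitia with fibroblasts, nerves and adjoining fat. In pieces of whole tissue, fewer cells of a type and less RNA per cell cannot be told apart.

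The files list an abundance signal per transcript, identified by an Ensembl transcript number or by a number from a transcript assembly (MERGE, a locus number and an isoform number). They do not pair transcripts with genes. The reference gene table used here holds no Ensembl identifiers, so none of the 39614 transcripts shared by all files could be matched to it. Markers of smooth muscle, endothelium or other cells could therefore not be checked, and the results below are of transcripts, assembled loci and isoforms by identifier. Of the shared transcripts 29983 reached a value of 1 in 5 or more libraries and were tested, 21957 from Ensembl and 8026 assembled. The unit of the signal is not named, so whether values are scaled for transcript length is not known. Tests compare libraries for the same transcript, locus or share. Locus sums, isoform shares and the share of the 10 highest transcripts add values of different transcripts and take them to be on 1 scale, and an order of transcripts by signal is a description of the listed values only.

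The libraries were similar in summed signal, with 1 exception. Summed signal over the shared transcripts was 388538 to 440705 in Control and 403994 to 444752 in neferine replicates 2 to 6, against 567508 in neferine replicate 1. In that library the 10 highest transcripts took 29.0% of the signal, against 12.0% to 21.5% in the other neferine libraries and 13.5% to 21.8% in Control. No difference between the groups was detected in summed signal, in the share listed at 0, in the share of the 10 highest or in the share of signal from assembly (two-sided exact permutation test for each of the 4 measures, adjusted p = 0.708 for all after Benjamini-Hochberg, n = 5 and 6). On the first principal component of the 11 libraries, which held 15.4% of the variance, neferine replicate 1 lay at 137.2 and all others between -55.0 and 20.9. Its median Spearman correlation was 0.580 with Control libraries and 0.620 with the other neferine libraries, in both cases the lowest of the 11 libraries, so it stood apart from both groups. On the second component, which held 12.7% of the variance, Control lay between 8.50 and 75.6 and neferine replicates 2 to 6 between -65.5 and -21.6. Neferine replicate 1 lay at 43.8. Results are given with and without this library where it matters.

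Across all transcripts 11 passed the test (limma, Benjamini-Hochberg adjusted p under 0.05), which is 0.0367% of the 29983 tested. Of these, 10 rose (0.0334%) and 1 fell (0.00334%) with angiotensin II and neferine, and all 11 are Ensembl transcripts. Their log2 fold changes, on the log2(value + 1) scale, ran from 1.27 to 5.20 for the rises. The 11 had no overlap between Control and neferine libraries, a property that 2.08% of all tested transcripts shared. Before adjustment 8.74% of the transcripts had a p under 0.05, with 1267 higher and 1355 lower.

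**Figure D1:**
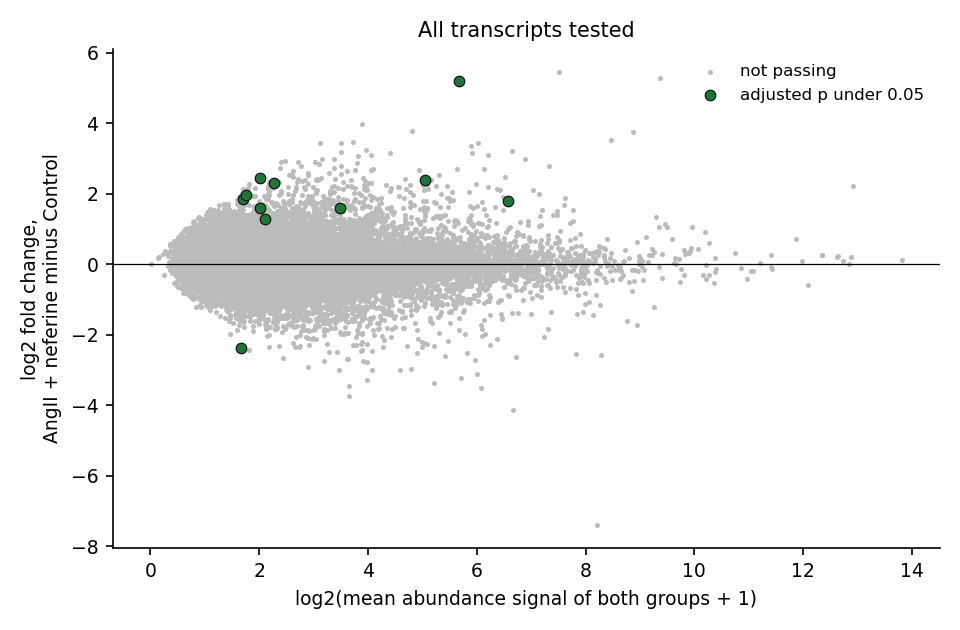
Log2 fold change of each of the 29983 tested transcripts (vertical axis, neferine minus Control) against the log2 of its mean abundance signal plus 1 over both groups (horizontal axis). Green points mark the 11 transcripts with an adjusted p under 0.05, 10 of them above 0 and 1 below.

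ENSMUST00000112747 had the largest rise of the transcripts that passed. In Control it was at 0.805 in replicate 1, was listed at 0 in replicate 2 and was at 0.0461, 0.0497 and 0.0362 in replicates 4, 5 and 6. With neferine it was at 11.7, 22.0, 39.7, 463, 26.2 and 38.0 in replicates 1 to 6. Every neferine library lay above every Control library, and replicate 4 lay far above the other neferine libraries. The log2 fold change was 5.20 ± 0.69 (SE; limma, adjusted p = 0.0245). In AngII without neferine the transcript lay between 0.364 and 7.64, below the lowest neferine library. It lost its call without Control replicate 2, 4 or 5 (limma, adjusted p = 0.0596, 0.104 and 0.123) and without neferine replicate 2 or 6 (limma, adjusted p = 0.0581 and 0.0535, against 0.000789 to 0.123 over the limma settings), and kept it without neferine replicate 4.

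ENSMUST00000113237 showed the next largest rise among them. It was listed at 0 in Control replicates 1 and 6 and was at 0.0269, 0.526 and 0.411 in replicates 2, 4 and 5. With neferine it was at 2.63, 4.31, 9.91, 8.26, 4.74 and 5.33 in replicates 1 to 6. The groups did not overlap, and the neferine libraries spanned a narrower range than those of the first transcript. The log2 fold change was 2.46 ± 0.41 (SE; limma, adjusted p = 0.0483). The AngII libraries lay between 0.731 and 11.3, a range that covers the neferine values. This call was close to the threshold and was lost in 19 of the 31 other settings in which the transcript was tested, among them the omission of any 1 Control library (limma, adjusted p = 0.0929 to 0.142, against 0.00438 to 0.151 over the limma settings). It was also lost without AngII replicate 1, 3 or 4 or without any 1 of neferine replicates 2 to 6.

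The remaining 8 rises lay at different levels, and in each the AngII mean fell between those of Control and neferine. The transcript with the highest signal among them was at 41.8 ± 15.3 (SD, n = 5) in Control and at 146.3 ± 43.1 (SD, n = 6) with neferine. Its AngII mean lay between them at 105.7 ± 39.6 (SD, n = 6). The one with the smallest log2 fold change of the 10 rises, 1.27 ± 0.19 (SE; limma, adjusted p = 0.0324), was at 1.52 ± 0.332 (SD, n = 5) in Control and at 5.15 ± 1.15 (SD, n = 6) with neferine. Its spread between libraries was small, and AngII was at 4.23 ± 0.901 (SD, n = 6). Another was at 8.57 ± 3.10 (SD, n = 5) in Control, at 55.8 ± 34.2 (SD, n = 6) with neferine and at 15.7 ± 5.55 (SD, n = 6) in AngII. The Control mean was under 1 in 4 further rises, at 0.313 to 0.914, where the neferine means lay between 4.24 and 6.95. One of these was at most 0.478 in Control and passed the filter only through AngII and neferine libraries. The same holds for ENSMUST00000112747 and ENSMUST00000113237, so the number of rises depends in part on the filter. Identifiers of these 8 Ensembl transcripts are not printed, since the gene table used here does not pair them with gene names.

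The size of the rises varied between the neferine libraries. Neferine replicate 1 was the lowest of its group in 8 of the 10 risen transcripts, and neferine replicate 4 was the highest in 6. The same was not counted over all tested transcripts, so whether this is particular to the rises is not known. Neferine replicate 1 is also the library with the large share of signal in its 10 highest transcripts, and its part in these values was not tested. Without it 27 transcripts were called, 26 higher and 1 lower, and all 11 were among them.

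**Figure D2:**
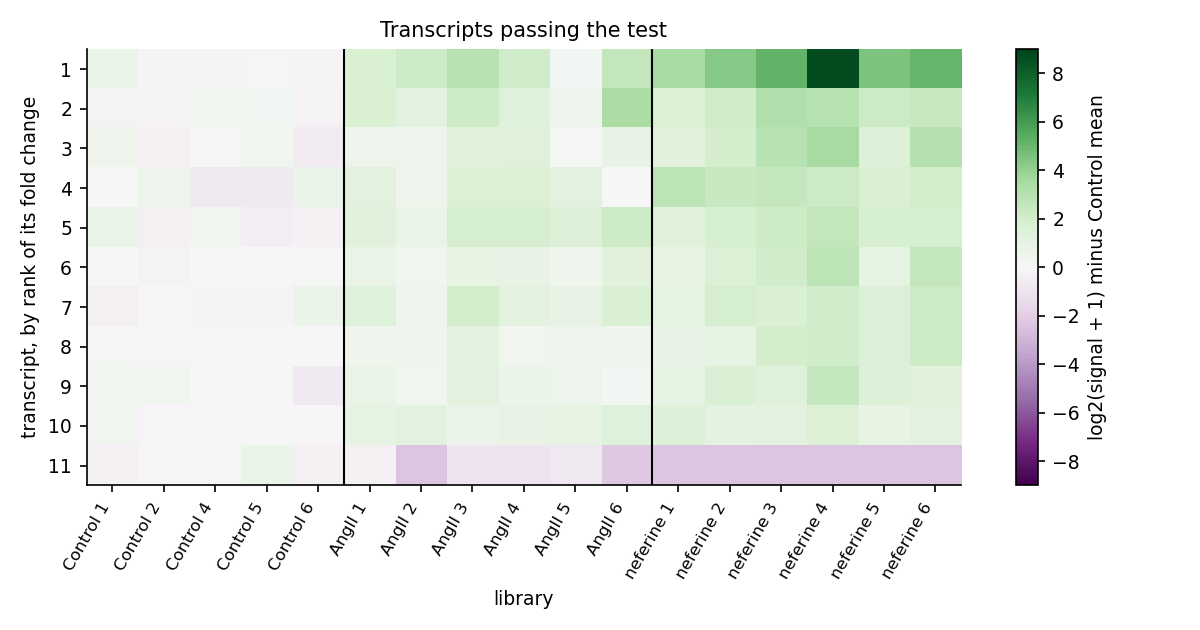
Values of the 11 transcripts that passed (rows, in order of fold change) in all 17 libraries (columns), as log2(signal + 1) minus the Control mean, green above it and purple below. Rows 1 to 10 are greener in the neferine libraries than in Control, and row 11 is purple in all 6 of them.

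ENSMUST00000174734 was the 1 transcript that fell. In Control it was at 3.22, 3.76, 4.72, 7.10 and 2.99 in replicates 1, 2, 4, 5 and 6, and it was listed at 0 in all 6 neferine libraries. In AngII it lay between 0.104 and 3.11 in 5 libraries and was listed at 0 in replicate 2. The groups did not overlap, and the difference on the log2(value + 1) scale was -2.37 ± 0.33 (SE; limma, adjusted p = 0.0245, against 0.000826 to 0.123 over the limma settings). With neferine listed at 0 throughout, this difference depends on the pseudocount and is neither a ratio nor a bound on one. A value listed at 0 can be a failed estimate, and 6 equal values add no spread to the test. The call was lost without Control replicate 2, 4 or 5 (limma, adjusted p = 0.0596, 0.104 and 0.123) and without neferine replicate 2, 4 or 6 (limma, adjusted p = 0.0603, 0.0903 and 0.0583).

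The next lower transcript by p, among those without overlap and with a mean of at least 1 in either group, did not pass. MERGE.28904.1 was at 2.73, 3.84, 2.04, 2.76 and 2.27 in Control replicates 1, 2, 4, 5 and 6, and at 0.125, 0.693, 0.627, 0.455, 0.789 and 0.581 in neferine replicates 1 to 6. Every neferine library lay below every Control library, with a log2 difference of -1.27 ± 0.22 (SE; limma, adjusted p = 0.0556). AngII lay between 0.377 and 2.32. The difference passed in 9 of the 31 other settings, such as without AngII replicate 2, 5 or 6 (limma, adjusted p = 0.0446, 0.0437 and 0.0333, against 0.0201 to 0.174 over the limma settings).

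**Figure D3:**
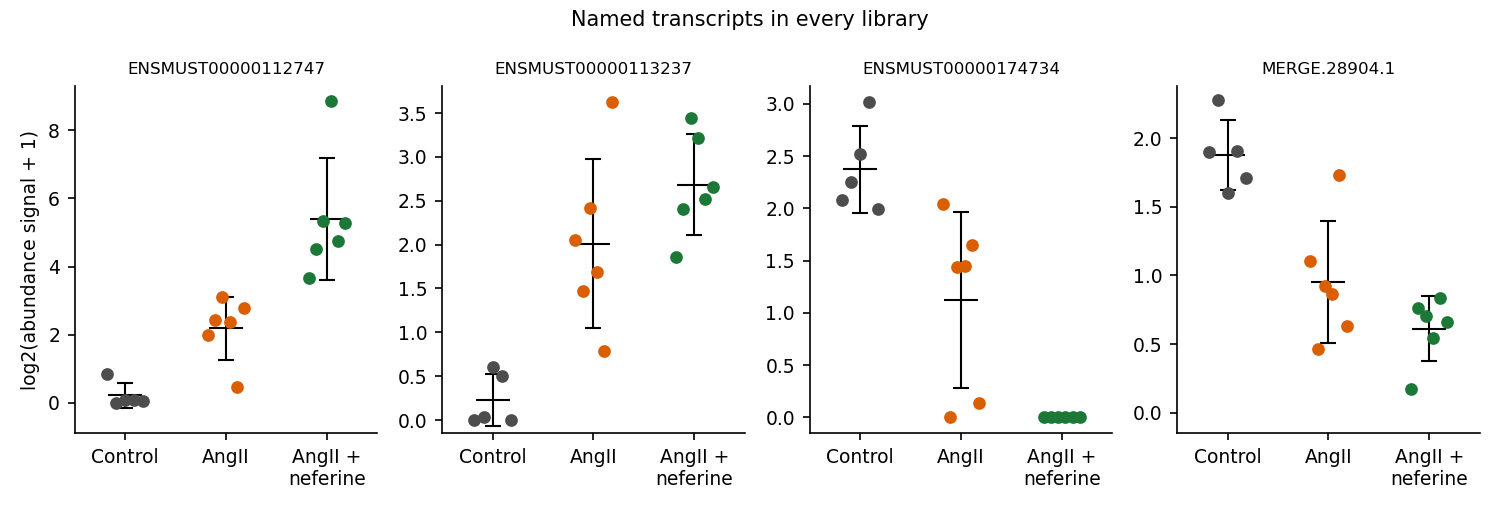
Log2(abundance signal + 1) of 4 transcripts (vertical axes, each with its own range) in Control, AngII and neferine libraries, with 1 point per library and bars for the mean ± SD. In all 4 panels the Control and neferine points do not overlap, and ENSMUST00000174734 is at 0 in the 6 neferine libraries.

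The number of calls depended on single libraries. Leaving out Control replicate 2, 4 or 5, or neferine replicate 2, left no call, although 2225 to 2581 transcripts then had an unadjusted limma p under 0.05. The exact rank sum test on all 11 libraries called 0, with 2530 at an unadjusted p under 0.05. Even transcripts without overlap reached only an adjusted p of 0.208 in that test. That value depends on how many transcripts were without overlap, here 625, which were too few for the smallest p of this test to pass. A single transcript cannot pass by itself in it, so its count says nothing about any 1 limma call. There was 1 call without neferine replicate 4 or 6, 3 without AngII replicate 4, 5 without Control replicate 1, AngII replicate 1 or neferine replicate 3, and 6 without Control replicate 6 or AngII replicate 3. Without AngII replicate 6, which stands apart from all other libraries, 31 were called. A fit of only the Control and neferine libraries called 26 (14 higher, 12 lower), with 7 of the 11 among them. That fit called 0.0867% of the transcripts tested, and with neferine replicate 1 also left out it called 73, 48 higher and 25 lower, with all 11 among them. Scaling each library to an equal total left 1 higher and 1 lower call. A limma fit with a term for the replicate number called 0 transcripts.

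**Figure D4:**
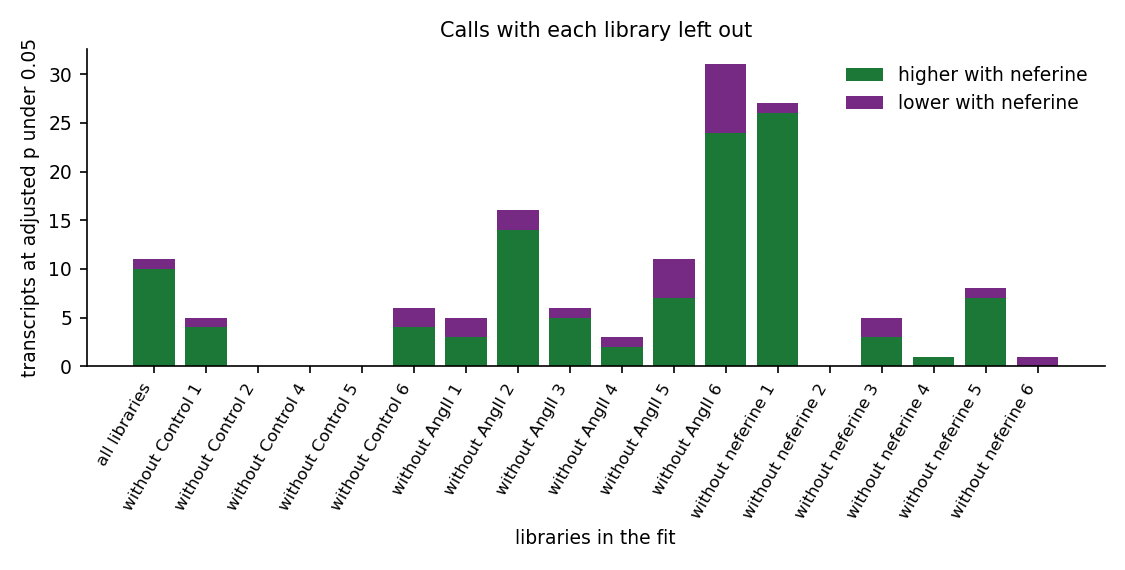
Number of transcripts with an adjusted p under 0.05 (vertical axis) in the fit of all 17 libraries and with each library left out in turn (horizontal axis), split into higher (green) and lower (purple) with neferine. The count is 11 with all libraries, 0 without 4 of the Control and neferine libraries and 31 without AngII replicate 6.

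The values of Control and neferine libraries were fully separated in 625 transcripts (2.08%), of which 275 (0.917%) were higher and 350 (1.17%) lower with neferine. Their median absolute log2 fold change was 0.84, with quartiles of 0.59 and 1.20, and 614 of them were not called. Among those that differed by at least 1 on the log2 scale, 133 were higher and 99 were lower. The balance of higher and lower was not stable. Higher transcripts were 44.0% of the 625, 28.3% after scaling to equal totals, 57.4% after median of ratios scaling and 56.4% as deposited without neferine replicate 1 (532 higher and 411 lower). The median log2 difference of all transcripts was -0.03 as deposited, -0.09 after scaling to equal totals and 0.02 after median of ratios scaling. No overall direction is therefore given.

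Ensembl and assembled transcripts differed in this balance. The groups did not overlap in 496 of the 21957 Ensembl transcripts tested (2.26%) and in 129 of the 8026 assembled (1.61%). Among these Ensembl transcripts 242 were higher and 254 lower, and among these assembled transcripts 33 were higher and 96 lower. Thus 48.8% and 25.6% were higher. Assembled transcripts had the lower percentage under each scaling tried, from 16.9% to 32.2% with all 11 libraries and from 35.7% to 44.1% without neferine replicate 1. In Ensembl transcripts it was 31.9% to 63.0% and 54.0% to 67.5%. Assembled transcripts made up 8.05% of the signal of neferine replicate 1, against 11.003% to 12.8% in the other neferine libraries and 11.1% to 12.6% in Control, and the part of this in the balance was not tested. The difference between the kinds of transcript was not tested either.

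A few transcripts were listed at 0 throughout 1 group. Of the 29983 tested there were 3 at 0 in all Control libraries and above 0 in all neferine libraries. There were 2 with the reverse pattern, of which ENSMUST00000174734 is 1. A transcript at 0 in 1 group can pass the filter only through the other groups. These counts therefore depend on the filter and do not compare the directions. One of the 3, MERGE.3464.9, is described below by its share. Apart from ENSMUST00000174734, these did not pass (limma, adjusted p = 0.0769 to 0.244). The 3 that appeared with neferine had neferine values of 0.476 to 26.5, 0.933 to 13.2 and 0.558 to 5.07.

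Large jumps between libraries of 1 group were common. Of 8242 transcripts that reached a value of 10 in a Control library, 1081 (13.1%) were more than 100 times lower in another Control library. With neferine the numbers were 1345 of 8743 (15.4%). The share was larger among assembled transcripts, at 33.4% in Control and 39.0% with neferine, than among Ensembl transcripts, at 8.29% and 9.80%. Jumps of this size also touched transcripts with very high signal. One that lay between 5400 and 17460 in the 6 neferine libraries and between 6600 and 11892 in 4 Control libraries was at 4.04 in Control replicate 4. None of the 1856 transcripts with such a jump in either group was called by limma, where a wide spread by itself lowers the chance of a call.

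Sums over the shared isoforms of an assembled locus were compared to ask whether the signal of loci changed. Isoforms listed in only 1 set of files are not in these sums, so a sum or an isoform count can be partial. Of 5368 loci tested, limma called 0 (0%), with 189 higher and 292 lower (8.96%) before adjustment. Control and neferine were separated in 111 loci (2.07%), 27 higher (0.503%) and 84 lower (1.56%) with neferine. Calls appeared when single libraries were left out, with 1 without Control replicate 6, 3 without AngII replicate 5 and 4 without neferine replicate 1. The smallest p belonged to MERGE.40875, a locus with 2 listed isoforms. Its sum was at 18.3, 18.4, 5.34, 11.1 and 14.8 in Control and at 35.0, 51.9, 43.6, 71.7, 44.0 and 61.5 with neferine. All neferine libraries were above all Control libraries. The AngII mean lay between at 32.0 ± 12.3 (SD, n = 6), with libraries from 19.1 to 53.5. The log2 difference of 1.91 ± 0.32 (SE) did not pass (limma, adjusted p = 0.0799, against 0.0207 to 0.228 over the alternatives) and passed without neferine replicate 1 or AngII replicate 5. Its 2 isoforms did not carry the total evenly. MERGE.40875.7 was at 7.62 in neferine replicate 3 and at 15.9 to 52.0 in the other 5, while MERGE.40875.3 was at 36.0 in that library.

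MERGE.45651, a locus of 1 isoform, was the next higher locus by p among those chosen in the same way. It was listed at 0 in Control replicates 1, 4 and 5, was at 0.257 and 0.0125 in replicates 2 and 6, and lay between 1.28 and 2.11 with neferine (log2 difference 1.30 ± 0.27 SE; limma, adjusted p = 0.124). In AngII it was listed at 0 in 2 libraries and lay between 0.287 and 1.72 in the others. No Control library reached a value of 1, so the locus was kept by the filter only through AngII and neferine libraries. It passed in the fit of only Control and neferine libraries (limma, adjusted p = 0.0169, against 0.0169 to 0.275 over the alternatives).

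The lower loci with the smallest p, chosen in the same way, were MERGE.28904, whose 1 isoform is described above, and MERGE.28901, also of 1 isoform. MERGE.28901 was at 2.85 ± 0.827 (SD, n = 5) in Control and at 0.762 ± 0.301 (SD, n = 6) with neferine. The groups did not overlap, with 2.02 as the lowest Control value and 1.17 as the highest with neferine, and AngII was at 1.16 ± 0.630 (SD, n = 6). The log2 difference of -1.12 ± 0.22 (SE) did not pass (limma, adjusted p = 0.124, against 0.0476 to 0.360 over the alternatives). Both loci passed without AngII replicate 5.

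The share of each isoform in the summed signal of the shared isoforms of its locus was compared to ask whether these exchanged. It was computed as a fraction for 3726 isoforms of 1112 loci whose sum was at least 1 in all 11 libraries. Limma called 0 (0%), with 88 higher and 98 lower (4.99%) before adjustment. The groups did not overlap in 16 isoforms (0.429%), 9 higher (0.242%) and 7 lower (0.188%). If group had no bearing on the shares, full separation in 1 direction would have a probability of 0.00216, close to both. The percentage at an unadjusted p under 0.05 was also close to what that threshold gives by chance. The isoforms described next were chosen for lack of overlap, so their separation is not a result. There was 1 call without Control replicate 1, and 2 without neferine replicate 3 or 5.

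MERGE.12642.1 had the smallest p of the shares. It made up 0, 0.173, 0, 0.135 and 0.227 of its locus in Control replicates 1, 2, 4, 5 and 6, and 0.485, 0.757, 0.768, 0.565, 0.704 and 0.475 in neferine replicates 1 to 6. The groups did not overlap, and the difference of 0.519 ± 0.083 (SE) did not pass (limma, adjusted p = 0.209, against 0.115 to 0.896 over the alternatives). For the locus sum no difference was detected, with 5.10 ± 1.55 (SD, n = 5) in Control and 5.93 ± 1.18 (SD, n = 6) with neferine (limma, adjusted p = 0.902). MERGE.12642.5, the highest isoform of the locus by its Control mean, was at 2.21 ± 0.615 (SD, n = 5) in Control and at 1.19 ± 0.528 (SD, n = 6) with neferine. Its values overlapped between the groups and it did not pass (limma, adjusted p = 0.426). In signal rather than share, MERGE.12642.1 was at 0 to 1.41 in Control and at 2.28 to 4.94 with neferine. Its signal in AngII ranged from 0.0155 to 5.66, which covers the signals of both other groups except those listed at 0. Shares were not computed for AngII.

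MERGE.3464.9, at 0 in each of the 5 Control libraries, made up 0.105 to 0.598 of its locus with neferine (limma, adjusted p = 0.718, against 0.0719 to 0.896 over the alternatives). Its locus held 4 isoforms and had sums of 1.28 to 4.28 in Control and 3.12 to 12.9 with neferine. The locus sums overlapped between the groups (limma, adjusted p = 0.490).

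MERGE.27436.13 was lower in share, and its locus was lower in sum. The share was at 0.427, 0.355, 0.346, 0.393 and 0.386 in Control and at 0.0242, 0.185, 0.231, 0, 0.329 and 0.0274 in neferine replicates 1 to 6 (limma, adjusted p = 0.871, against 0.539 to 0.910 over the alternatives). The 5 Control shares lay close together and the neferine shares were spread widely, up to 0.329 in replicate 5. The sum over its 8 isoforms was 101.4 ± 7.88 in Control (SD, n = 5) against 53.9 ± 10.2 with neferine (SD, n = 6), without overlap, and did not pass either (log2 difference -0.92 ± 0.21 SE; limma, adjusted p = 0.178). AngII was at 73.2 ± 21.7 (SD, n = 6). In signal rather than share, MERGE.27436.13 was at 38.7 ± 4.94 (SD, n = 5) in Control and at 7.32 ± 8.43 (SD, n = 6) with neferine. Its signal in AngII was 10.3 ± 6.75 (SD, n = 6), also low. A second isoform of the locus, MERGE.27436.12, was at 45.04 ± 6.84 (SD, n = 5) in Control and between 2.16 and 35.2 with neferine. Its lowest Control value was 35.1, so the groups overlapped, and it did not pass (limma, adjusted p = 0.209).

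MERGE.12150.13 had shares of 0.168 to 0.335 in Control and of 0.0415 to 0.144 with neferine (limma, adjusted p = 0.871, against 0.630 to 0.910 over the alternatives). The shares did not overlap, which was a condition for naming this isoform. Its own values overlapped, at 0.482 to 4.07 in Control and 0.669 to 1.36 with neferine, and for the locus sum Control had 6.08 ± 4.498 (SD, n = 5) against 11.3 ± 4.27 (SD, n = 6) with neferine, where no difference was detected (limma, adjusted p = 0.597).

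**Figure D5:**
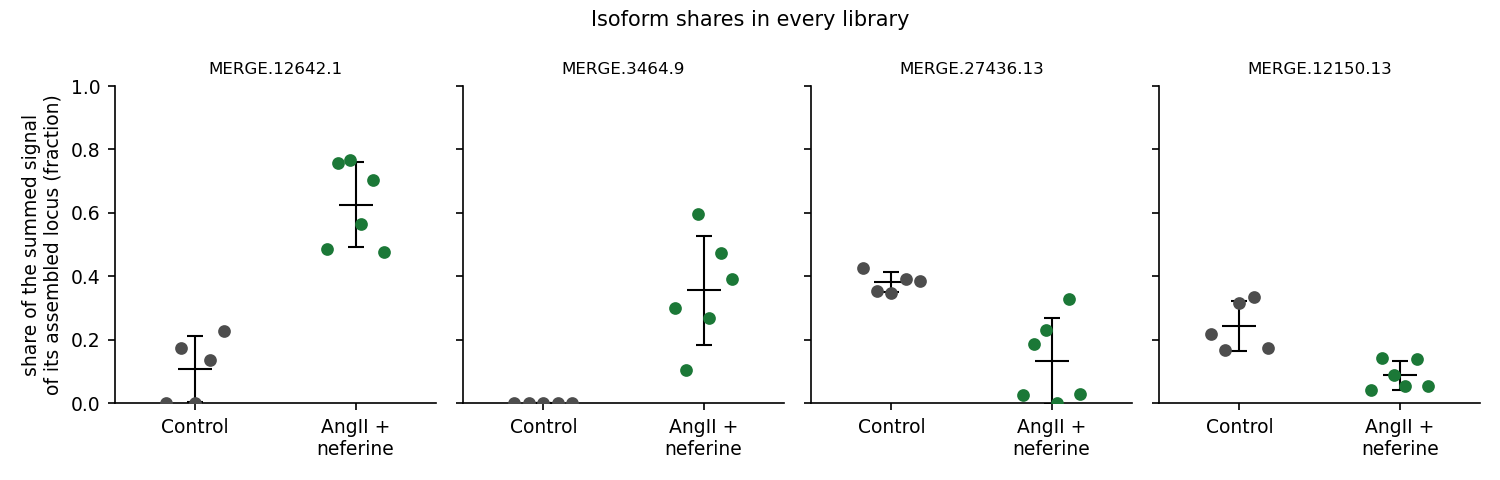
Share of 4 isoforms in the summed signal of the shared isoforms of their assembled loci (vertical axis, a fraction from 0 to 1). Control and neferine libraries are shown with 1 point per library and bars for the mean ± SD. The shares of the first 2 isoforms are higher and those of the other 2 lower with neferine without overlap, and none of the 4 passed.

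The files set limits on what can differ here. Control and AngII values come from 1 set of files and neferine values from another with different rows, so an effect of the agents and one of the file set cannot be told apart. Transcripts listed only with Control and AngII (4138) or only with neferine (2028) have no value in the other group and were not tested.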

How the data were processed

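RNA of 17 abdominal aorta samples was sequenced after removal of ribosomal RNA, per the labels' protocols. The deposited files hold a linear abundance signal per transcript, 1 column per sample, whose unit is not named in the file headers. Limma is listed in the submitters' processing notes, with no version or use. What aligned, assembled and quantified the reads, and on which build, is not given in the sources used here. Reads behind the values are unknown. Relative depth was estimated from the commonest ratio of values under 0.05 to those of Control replicate 1 and lay between 0.931 and 1.04 in the 11 libraries. No pair of libraries held more than 0.0167% equal values above 0.

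Files were joined by identifier and values tested as log2(value + 1), which understates changes of low transcripts, with limma 3.58.1 in R 4.3.3 (trended, robust empirical Bayes). All 17 samples entered 1 fit with a term per group. A transcript was kept if it reached 1 in 5 or more libraries, and p-values were adjusted by Benjamini-Hochberg over all of them. Loci were fitted in the same way, and isoform shares, as a fraction of the locus sum, on the 11 libraries. The scripts were tested on simulated data. The samples, lists and tests were chosen with earlier results of these data known.

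Named transcripts were those called with the largest change, then those with the smallest p among groups without overlap and with a mean of at least 1. The rule allowed more, but without gene names at most 2 identifiers in each direction are given for a comparison, besides isoforms of a named locus, which were chosen after their values were seen. Planned gene lists, cell type markers and sums per gene could not be used for the same reason. Alternatives were another pseudocount, filter, scaling, prior or library weights, a replicate term, an exact rank sum test and the omission of libraries.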

Additional observations from a re-analysis of the deposited data

Results flagged for a closer look

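Single libraries far from the rest of their group were sought in 72 groups of 5 or 6 values, and 14 were found (19.4%). For normally distributed values chance gives about 1 in 20, a rate that was not tested for these values, which were taken on the linear scale. Several concern the same libraries or transcripts, so they are not independent.

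Neferine replicate 1 was far from the other neferine libraries in summed signal (567508, against 403994 to 444752) and in the share of signal in assembled transcripts (8.05%, against 11.003% to 12.8%). It was also far above them in 3 of the 12 transcripts that were among the 10 highest of any of the 11 libraries, at 13516 (next library 6631), 18897 (next 9736) and 13355 (next 6613). The first and the last of these 3 differed by at most 1.20% in any of the 11 libraries, so they count as 1 signal. Control replicate 5 stood above the other Control libraries in the share of its 10 highest transcripts (21.8%, against 13.5% to 15.2%) and in 2 of the 12, at 6028 (next 3575) and 10655 (next 6874).

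Among the transcripts that passed, ENSMUST00000112747 was far higher in neferine replicate 4 (463, next 39.7) and in Control replicate 1 (0.805, next 0.0497). Another was at 29.2 in neferine replicate 4 (next 16.6). A further pair stood out in Control, at 68.4 in replicate 6 (next 39.4) and at 1.16 in replicate 1 (next 0.884). The locus MERGE.45651 was at 0.257 in Control replicate 2 (next 0.0125).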

How the results depend on the processing

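Counts of called transcripts, 11 in the fit reported, moved by more than 1.5 times in 24 of 32 alternatives. There were 4 without a filter, 2 with a pseudocount of 5, 6 without a trend, 63 with library weights and 2 after scaling to equal totals. A fit of only the 11 Control and neferine libraries gave 26, and 73 without neferine replicate 1, an alternative chosen after seeing the data. Without AngII replicates 2 and 6 and neferine replicate 1 there were 106. The exact rank sum test gave 0, since too few transcripts were without overlap for its smallest p to pass the adjustment. Leaving out 1 library gave 0 to 31 transcripts, 0 to 4 loci and 0 to 2 isoform shares. It gave 787 to 1032 transcripts without overlap (alternatives chosen after seeing the data), against 625, where fewer libraries by themselves leave fewer overlaps. The fit of only 11 libraries called 2 loci. The cause of the other changes was not tested. None of the 12 named transcripts, loci and shares changed sign under any alternative run. All 12 were without overlap between Control and neferine, so leaving out libraries or changing the pseudocount could not reverse them.

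The labels do not state whether replicate numbers pair the samples, and the fit reported takes them as unpaired. Deviations of the 5 same-numbered Control and neferine libraries correlated only weakly, at -0.025 to 0.0462. Still, 4 of 5 Control libraries correlated best with the neferine library of their own number. The margins could be small, as in Control replicate 6 with 0.0436 against 0.0425 for neferine replicate 5. The highest correlation of all, 0.136, was between Control replicate 4 and neferine replicate 1. Whether the numbers pair the samples was not tested. With a replicate block 0 transcripts, 0 loci and 2 isoform shares were called. Sums per gene were not run because identifiers could not be paired with genes. Unknown depth prevents any interval based on counts.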

Other observations

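Transcripts listed in only 1 set of files include some with high signal. Of the 4138 listed only with Control and AngII, 40 had a Control mean of at least 5, the highest at 133.3. Of the 2028 listed only with neferine, 28 had a neferine mean of at least 5, the highest at 101.2. Assembled transcripts made up 45.3% and 33.8% of these, against 28.5% of the shared transcripts.

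Among the 12 transcripts that were in the 10 highest of any of the 11 libraries, 7 were in the 10 highest of all. A pair of them had values within 0.947% of each other in all 11 libraries, and another pair within 1.20%. Levels of such transcripts cannot be taken as separate measurements.

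The median SD of a transcript between libraries, on the log2(value + 1) scale, was 0.49 in Control, 0.52 with neferine and 0.45 with neferine replicate 1 left out.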
